A study of Mus musculus with 14 samples.

Results

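The genes described here encode the proteasome, its regulators and its assembly factors. They were chosen by symbol: every protein-coding gene whose symbol matches the pattern of Psma, Psmb, Psmc, Psmd, Psme, Psmf or Psmg followed by a digit. The rule found 49 genes among 20875 listed for the culture experiment, and the same 49 among 18855 listed for the mouse experiment. The 5 immunoproteasome genes Psmb8, Psmb9, Psmb10, Psme1 and Psme2 were set against the other 44. Of these 44, Psmc3ip shares only the symbol pattern (its product is a meiotic recombination factor and no subunit), and Psme2b is a retrogene copy of Psme2.

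The 20S core proteasome is a barrel of stacked rings that cuts proteins into peptides. Its outer rings are built of alpha subunits (Psma), and its inner rings of beta subunits (Psmb), among which Psmb5, Psmb6 and Psmb7 carry the proteolytic sites. The 19S cap (Psmc ATPases and Psmd subunits) recognises ubiquitin-tagged proteins, unfolds them and feeds them into the core. In lymphocytes and in cells exposed to interferon, Psmb8, Psmb9 and Psmb10 are built into new cores in place of Psmb5, Psmb6 and Psmb7 respectively, and the PA28 cap made of Psme1 and Psme2 can bind the core. These immunoproteasomes are known for making peptides for MHC class I.

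RNA was sequenced from samples labelled primary CD4 T cells of C57BL/6 mice, in 14 libraries. In the culture experiment, wild type cells, labelled lymph node, were kept in medium (n = 2), treated with antibodies to CD3 and CD28 (n = 3), which stand in for antigen and costimulation, or treated with the same antibodies and TRAIL (n = 3). TRAIL is a ligand of the tumour necrosis factor family that can bind a death receptor. The labels give 1 mg/ml for the antibodies and 10 ug/ml for TRAIL, printed here as labelled, and no culture time. In the mouse experiment, cells labelled spleen came from TRAIL-R f/f animals given vehicle (n = 1), TRAIL-R f/f animals given TRAIL (n = 3) and Lck Cre TRAIL-R f/f animals given TRAIL (n = 2); all 3 groups carry the floxed receptor gene. The Lck promoter drives Cre in T cells. No age, dose or time was given for the mice. Whether replicates came from separate cultures or animals is not labelled either, so p-values measure the spread between these libraries, which may be technical. The libraries held 23034062 to 32292528 reads in culture and 19199048 to 56874313 reads in mice, and the 49 genes took 0.328% to 0.841% and 0.394% to 0.48% of them.

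Some mouse libraries stood apart or went against their labels. The libraries on lane 2 (vehicle, floxed TRAIL replicate 1 and Lck Cre replicate 1) had a summed TPM (transcript abundance corrected for gene length and scaled to the same total in every library) of 8 neutrophil markers of 72677 to 96355, against 17536 to 26504 on lane 4 (floxed TRAIL replicates 2 and 3 and Lck Cre replicate 2), while 10 CD4 T cell markers summed to 466 to 2042 in all 6, although the label reads primary CD4 T cell. In culture the same neutrophil sum was 30.1 to 282 and the CD4 T cell sum 3358 to 4534. Tnfrsf10b, the mouse TRAIL receptor gene, was at 2.04 and 3.5 TPM in the libraries labelled Lck Cre. It was at 1.64, 1.46 and 2.31 TPM in floxed TRAIL replicates 1, 2 and 3, and at 1.82 TPM in the vehicle library. Its level over the whole gene was thus not lower in the libraries labelled Lck Cre. All these levels are low and the floxed part of the gene was not examined, so they do not show whether it was deleted. The vehicle library also carries the bracketed name B6_spleen, Lck Cre replicate 1 carries no TRAIL tag in its bracketed name, and TRAIL is spelled TARIL in the 2 Lck Cre titles.

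Promoter sequences of these genes were searched because their members moved together in culture. RefSeq windows on GRCm38.p6, from 250 bases before to 50 bases after each gene's start, were matched by symbol for 41 of the 49 genes, in 44 windows. On both strands, the core of the interferon-stimulated response element (GAAANNGAA) lay in 15.9% of the members' windows and in 8.56% of all 32851 windows. The core of the interferon gamma activated site (TTCNNNGAA) lay in 6.82% against 8.3%, and the core of the antioxidant response element (TGACNNNGC), the site class bound by the proteasome gene activator Nfe2l1, in 13.6% against 12.4%. The 7 members with the interferon-stimulated core were Psmb3, Psmb4, Psmc2, Psmd4, Psmd9, Psme1 and Psmg4. The 3 with the interferon gamma core were Psmb8, Psmd2 and Psmg1. Most genes with either core were outside the immunoproteasome set, as were most of the 41 matched genes. Among the 5 immunoproteasome genes, each of these 2 cores lay in 1 of 6 windows, in Psme1 and Psmb8 respectively, and the antioxidant core was in 0 windows. The stretches below show those matches and the antioxidant cores of the constitutive catalytic genes Psmb5 and Psmb6, in capitals, on the strand of each gene.
Psmb8, chr17:34198088-34198117 (+): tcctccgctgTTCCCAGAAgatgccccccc
Psme1, chr14:55578494-55578523 (+): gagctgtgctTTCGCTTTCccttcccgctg
Psmb5, chr14:54618023-54618052 (-): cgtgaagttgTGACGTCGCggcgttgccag
Psmb6, chr11:70525338-70525367 (+): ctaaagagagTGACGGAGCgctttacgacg
The Psme1 match is read on the strand opposite to the gene. GENCODE M21 annotates the Psmb8 and Psme1 matches as exonic and untranslated in at least 1 transcript, and the Psmb5 and Psmb6 matches lie outside exons. A match of these letters is a description of the window and does not show binding.

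The members' levels spanned a wide range, and the order of the immunoproteasome genes within it differed between groups. TPM is scaled by gene length, so levels can be set beside each other between genes. Psme1, the alpha subunit of PA28, had the highest mean of the 49 genes in all 6 groups, from 278 TPM in the Lck Cre libraries to 897 TPM with antibodies and TRAIL. In medium Psmb9 and Psmb10 ranked 13 and 15 of the 49, with antibodies 30 and 38, and with antibodies and TRAIL 4 and 6. With TRAIL the order was Psme1 (897 TPM), Psmb8 (594), Psme2 (483), Psmb9 (301), Psme2b (268) and Psmb10 (266); Psmb9 did not overlap with the genes below it, whereas Psme2b and Psmb10 overlapped. At the bottom, Psmg3, a chaperone of 20S assembly, was at 2.92 to 7.4 TPM as group means. Psma8, an alpha subunit known from testis, was at 0.0615 to 0.449 TPM in culture (1 to 11 reads), below the minimum mean of 1 TPM for testing, and at 0.957 to 2.19 TPM as group means in mice.

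**Figure D1:**
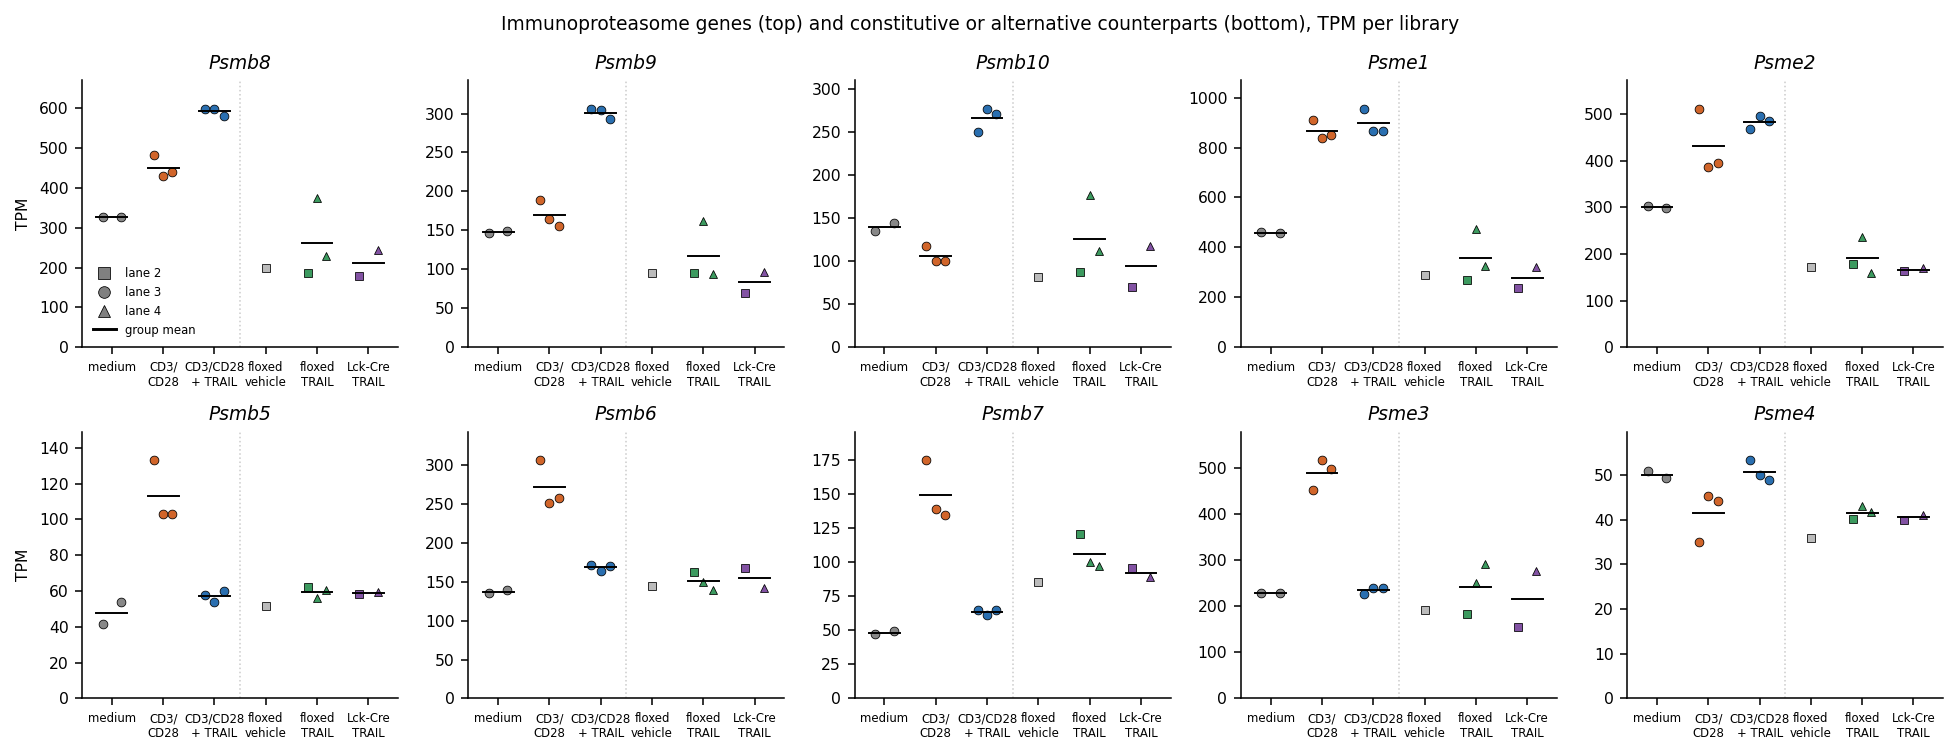
TPM in each library (points, shaped by lane) of the 5 immunoproteasome genes (top row) and of 5 constitutive or alternative counterparts (bottom row) in the 6 groups; bars are group means. Psmb8, Psmb9 and Psmb10 are highest with antibodies and TRAIL, and Psmb5, Psmb6, Psmb7 and Psme3 with antibodies alone.

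The first culture comparison asked what stimulation through CD3 and CD28 did to these genes. Genes of the core and the 19S cap rose together, while of the 3 immunoproteasome catalytic genes 1 rose, 1 fell and 1 did not pass. By limma with Benjamini-Hochberg adjustment over all genes, 43 of 48 tested members rose, 2 fell and 3 did not pass, where 27.5% of all 14035 tested genes rose and 49.0% fell. The median log2 fold change was 1.05 over the other members and 0.46 over the 5 immunoproteasome genes, beside -0.32 over all genes.

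Markers of other cells moved with these changes. The summed TPM of 8 B cell markers was 1421 to 1451 in medium, 234 to 276 with antibodies and 1190 to 1202 with antibodies and TRAIL. For 10 macrophage and monocyte markers it was 1162 to 1252, 35.1 to 40.2 and 372 to 450, with 7 of the 10 at a mean of at least 1 TPM with antibodies and 10 of 10 in the other groups. The 10 CD4 T cell markers, all above that mean, summed to 4528 to 4534, 3358 to 3839 and 3655 to 3717. The sums of 8 CD8 T cell and NK cell markers (238 to 268, 369 to 439 and 205 to 212) and of 5 plasma cell markers (162 to 176, 383 to 425 and 183 to 200) were highest with antibodies. Those of 6 dendritic cell markers (35.5 to 37.1, 11 to 14.8 and 27.1 to 29.5) and of 8 neutrophil markers (258 to 282, 30.1 to 44.6 and 168 to 193) were lowest there, with 1 neutrophil marker listed at 0 in every library with antibodies. The erythroid and platelet sum was 128 to 140, 10.7 to 15.7 and 30.6 to 36.8. The part of other cells in the culture results was not tested, and in bulk RNA fewer cells of a type and less RNA per cell cannot be told apart.

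Every subunit of the alpha ring rose (7 of 7, median 1.36), as did the 6 ATPases of the 19S base, which unfold the substrate (median 0.99), the 11 other 19S subunits (1.1) and the 4 beta subunits without a catalytic site (1.02). Psma5, an alpha ring subunit, was at 64.9 and 58.7 TPM in medium and at 229, 156 and 160 TPM with antibodies. There was no overlap between medium and antibodies, replicate 1 with antibodies was above its partners, and the log2 fold change was 1.52 ± 0.16 (SE; adjusted p = 3.92e-05). Replicate 1 was the highest of the 3 stimulated libraries for 40 of the 49 genes, and no such count over all genes is given here. Psmd7, a 19S lid subunit, was at 101 and 93.4 TPM in medium and at 261, 246 and 247 TPM with antibodies (1.36 ± 0.069, adjusted p = 7.37e-07).

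All 3 constitutive catalytic genes rose. Psmb7, the trypsin-like subunit, was at 47.2 and 49.6 TPM in medium and at 175, 139 and 135 TPM with antibodies. That was the largest rise of a subunit, at 1.60 ± 0.11 on the log2 scale (adjusted p = 4.04e-06). Psmb5, the chymotrypsin-like subunit, was at 41.3 and 53.6 TPM in medium and at 133, 103 and 103 TPM with antibodies (1.23 ± 0.14, adjusted p = 8.6e-05). Psmb6, the caspase-like subunit, went from 135 and 139 TPM to 306, 251 and 257 TPM (0.98 ± 0.089, adjusted p = 2.02e-05). In none of these genes did the groups overlap, but nor did they in Psmb9, Psmd5 and Psme4, which did not pass. The share of all genes without overlap is not given here.

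The immunoproteasome genes each moved differently. Psmb8 was at 326 and 326 TPM in medium and at 483, 431 and 439 TPM with antibodies, a rise of 0.46 ± 0.065 (adjusted p = 0.000251). Psmb9 was at 147 and 149 TPM in medium and at 189, 164 and 155 TPM with antibodies; all 3 lay above medium, but the difference of 0.19 ± 0.085 did not pass (adjusted p = 0.0718). It passed without replicate 1 with antibodies (0.11, adjusted p = 0.0352) or without replicate 3 (0.25, adjusted p = 0.0299). Psmb10 was at 135 and 144 TPM in medium and at 117, 99.8 and 100 TPM with antibodies, all below medium, a fall with a log2 fold change of -0.40 ± 0.088 (adjusted p = 0.00308). The PA28 genes rose: Psme1 went from 461 and 457 TPM to 909, 837 and 849 TPM (0.91 ± 0.068, adjusted p = 6.49e-06). Psme2, the PA28 beta subunit, went from 303 and 298 TPM to 512, 387 and 395 TPM (0.51 ± 0.12, adjusted p = 0.00395).

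Among the other caps and the assembly factors, all but Psme4 and Psmd5 rose. Psme3, the nuclear PA28 gamma, was at 228 and 229 TPM in medium and at 452, 517 and 498 TPM with antibodies (1.09 ± 0.071, adjusted p = 2.75e-06). Psme4, which encodes the cap PA200, was at 50.8 and 49.3 TPM in medium and at 35.1, 45.3 and 44.1 TPM with antibodies, all below medium, and did not pass (-0.27 ± 0.11, adjusted p = 0.0514). Without replicate 1, 2 or 3 with antibodies it was called lower (adjusted p = 0.0213, 0.0282 and 0.0477). The 4 chaperones of 20S assembly rose (median 1.07), as did 2 of 3 chaperones of 19S assembly (Psmd5 did not pass, 0.23, adjusted p = 0.096) and Psmf1, which encodes the proteasome inhibitor PI31. Psmc3ip rose most of the 49 (6.08 and 6.11 TPM to 31.2, 23.1 and 28.4 TPM; 2.0 ± 0.15, adjusted p = 5.77e-06). Psme2b fell (187 and 170 TPM to 124, 146 and 147 TPM; -0.36 ± 0.089, adjusted p = 0.00583), a call lost without medium replicate 1 (adjusted p = 0.0568), and reads of Psme2b and Psme2 may have been split between near-identical copies.

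Because the fold changes are relative to the total of each library, scaling bears on the genes near no change. Median-of-ratios scaling moved the median of all genes from -0.32 to 0.04, and the calls from 3857 up and 6884 down to 5574 up and 5029 down. With it 45 members rose and 0 fell, Psmb10 was at -0.01 (adjusted p = 0.942), Psmb9 rose by 0.58 (adjusted p = 0.00374) and Psme2b was at 0.03. The fall of Psmb10 thus held relative to the library total and not under this scaling.

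**Figure D2:**
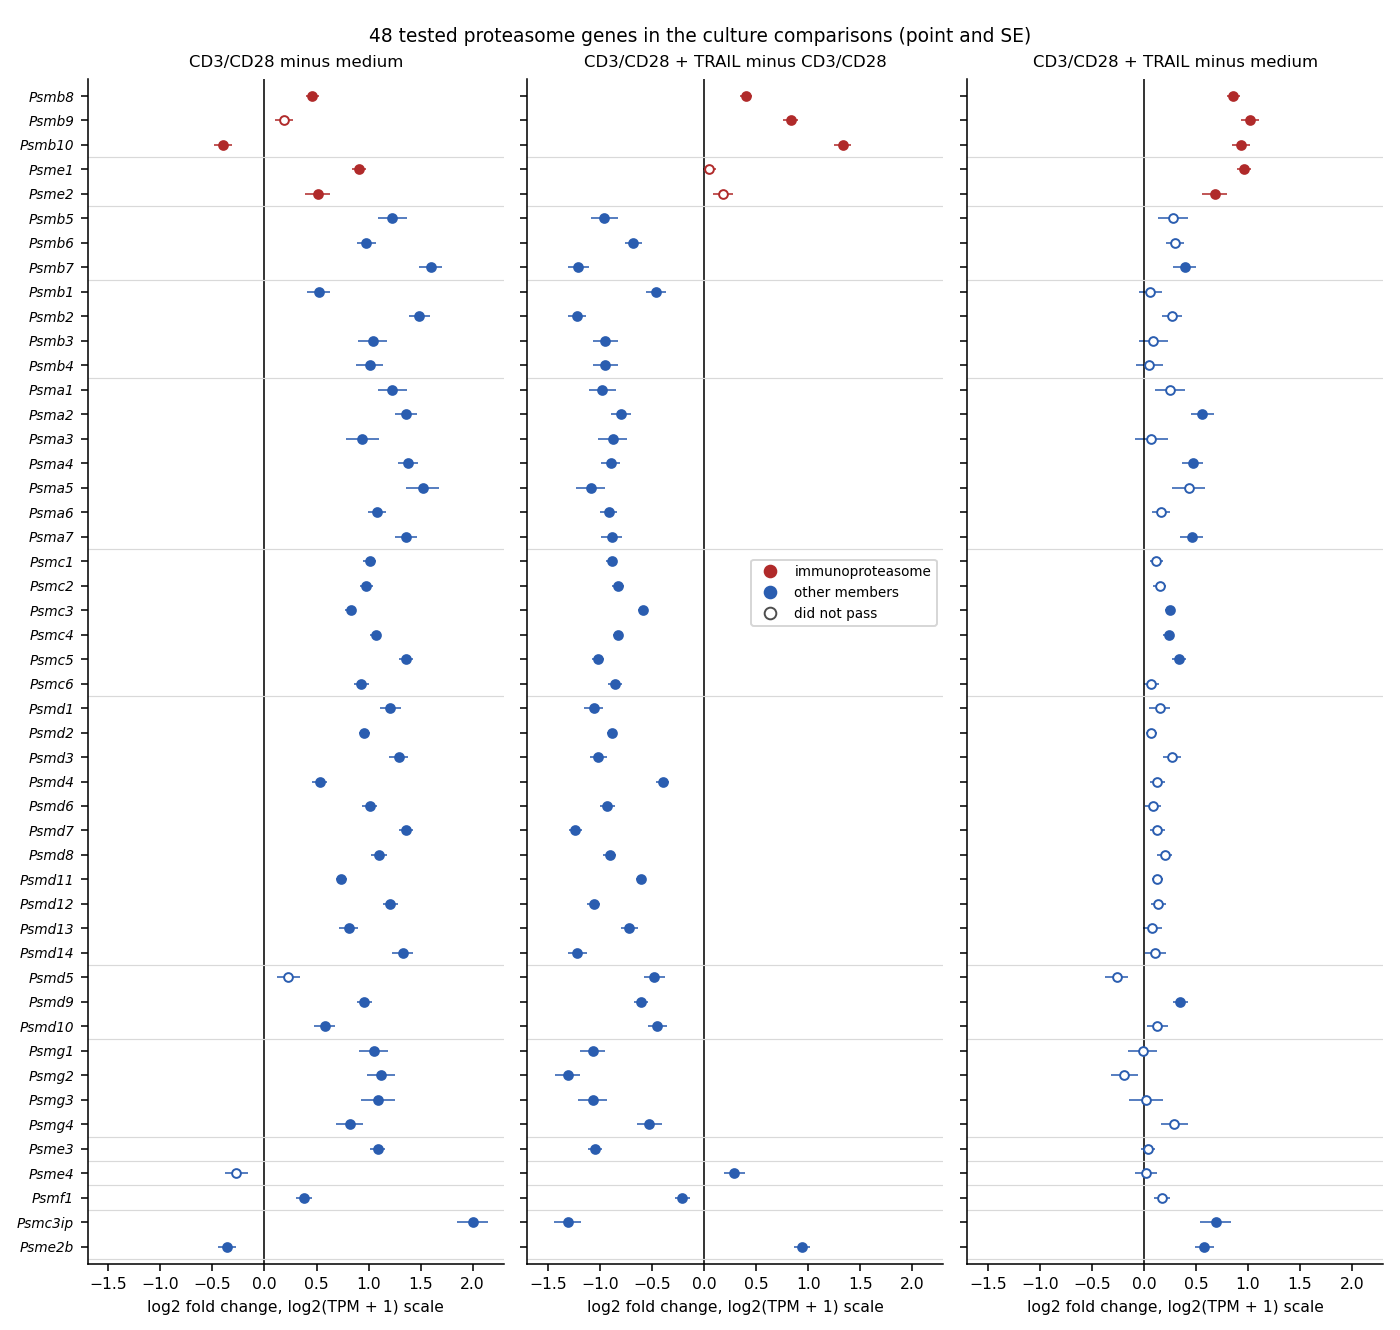
Log2 fold change (point) and SE (line) of the 48 tested members in the 3 culture comparisons, grouped by role; filled points passed an adjusted p of 0.05 by limma and open points did not. The 5 immunoproteasome genes (red) lie left of most other members in the first panel and right of most in the other 2.

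The second comparison asked what TRAIL changed in cells given the antibodies. The core and cap genes were lower with TRAIL, and the 3 immunoproteasome catalytic genes were higher. Of 48 tested members 5 rose (Psmb8, Psmb9, Psmb10, Psme4 and Psme2b), 41 fell and 2 did not pass, where 48.1% of all tested genes rose and 28.6% fell. The 2 that did not pass were Psme1 and Psme2. The median log2 fold change was 0.40 over the 5 immunoproteasome genes, -0.90 over the other members and 0.25 over all genes.

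Psmb10 had the largest rise: it was at 117, 99.8 and 100 TPM with antibodies and at 250, 277 and 271 TPM with TRAIL as well. The groups lay far apart, with a log2 fold change of 1.33 ± 0.078 (adjusted p = 1.77e-06). Psmb9 went from 189, 164 and 155 TPM to 306, 304 and 293 TPM (0.83 ± 0.076, adjusted p = 2.25e-05). Psmb8 went from 483, 431 and 439 TPM to 599, 599 and 582 TPM (0.40 ± 0.058, adjusted p = 0.000324). The PA28 pair did not pass. Psme1 was at 955, 868 and 867 TPM with TRAIL and overlapped with antibodies alone (0.05 ± 0.061, adjusted p = 0.467). Psme2 was at 468, 496 and 486 TPM with TRAIL and also overlapped (0.18 ± 0.10, adjusted p = 0.154). Psme2b rose, from 124, 146 and 147 TPM to 257, 275 and 272 TPM (0.94 ± 0.079, adjusted p = 1.32e-05).

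All 3 constitutive catalytic genes fell. Psmb7 was at 64.9, 61.5 and 64.8 TPM with TRAIL (log2 fold change -1.21 ± 0.099, adjusted p = 1.1e-05), Psmb5 at 58.0, 54.1 and 60.2 TPM (-0.96 ± 0.13, adjusted p = 0.000208), and Psmb6 at 172, 164 and 170 TPM (-0.68 ± 0.080, adjusted p = 9.35e-05). None overlapped with its libraries given antibodies alone. The alpha ring fell as a whole (7 of 7, median -0.90), as did the 6 ATPases (-0.85), the 11 other 19S subunits (-0.93) and the 4 noncatalytic beta subunits (-0.95).

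The deepest falls on the log2(TPM + 1) scale were those of Psmg2, Psmc3ip and Psmd7. Psmg2, a chaperone that helps to build the alpha ring, went from 76.3, 55.1 and 59.0 TPM to 24.8, 25 and 24.2 TPM (-1.31 ± 0.12, adjusted p = 1.83e-05). Psmc3ip went from 31.2, 23.1 and 28.4 TPM to 9.93, 12.3 and 9.40 TPM (-1.31 ± 0.13, adjusted p = 3.76e-05), and Psmd7 from 261, 246 and 247 TPM to 101, 105 and 112 TPM (-1.24 ± 0.062, adjusted p = 7.03e-07). Psme3 fell to 226, 240 and 240 TPM (-1.05 ± 0.063, adjusted p = 1.98e-06). Psme4 rose, to 53.3, 50.1 and 48.8 TPM (0.29 ± 0.099, adjusted p = 0.0263), and this call was lost without TRAIL replicate 1 (adjusted p = 0.0878) or replicate 2 (adjusted p = 0.0593).

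Median-of-ratios scaling moved the median of all genes here from 0.25 to -0.03 and the calls from 6746 up and 4019 down to 5201 up and 5604 down. With it 3 members rose and 42 fell. Psmb8 was then at 0.08 and did not pass (adjusted p = 0.491), Psme1 fell (-0.27, adjusted p = 0.0302), Psme2 was at -0.15 (adjusted p = 0.391) and Psme4 at -0.02, while Psmb9, Psmb10 and Psme2b still rose. Without replicate 1 given antibodies alone, Psme2 was called higher with TRAIL (0.30, adjusted p = 5.38e-05).

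The third comparison set cells given antibodies and TRAIL beside cells in medium. It shares its libraries with the other culture comparisons, so the 3 are not independent. All 5 immunoproteasome genes were higher than in medium, while most core and cap genes were not called. Of 48 tested members 15 rose, 0 fell and 33 did not pass, where 7.25% of all tested genes rose and 9.93% fell. The median log2 fold change was 0.93 over the 5 immunoproteasome genes, 0.15 over the other members and -0.06 over all genes.

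Psmb9 rose most, by 1.02 ± 0.085 on the log2 scale (adjusted p = 0.000193), from 148 ± 1.42 TPM in medium (SD, n = 2) to 301 ± 7.06 TPM (SD, n = 3). Psme1 rose by 0.96 ± 0.068 (adjusted p = 8.08e-05), Psmb10 by 0.93 ± 0.088 (adjusted p = 0.000366) and Psmb8 by 0.86 ± 0.065 (adjusted p = 0.000109). Psme2 rose by 0.68 ± 0.12 (adjusted p = 0.00596), a call that was lost when a medium library was left out (adjusted p = 0.0531 without replicate 1 and 0.052 without replicate 2). Of the constitutive catalytic genes, Psmb7 passed (0.39 ± 0.11, adjusted p = 0.0471), a call that several alternatives removed, median-of-ratios scaling (adjusted p = 0.0909) and the loss of any TRAIL or medium library (0.0957 to 0.245) among them. Psmb5 (0.28 ± 0.14, adjusted p = 0.233) and Psmb6 (0.30 ± 0.089, adjusted p = 0.0558) did not pass. The other rises were those of 3 alpha subunits (Psma2, Psma4 and Psma7), 3 ATPases (Psmc3, Psmc4 and Psmc5), Psmd9, Psmc3ip and Psme2b. None of the 11 other 19S subunits and none of the 4 chaperones of 20S assembly passed. Psme3 (236 ± 7.87 against 228 ± 0.461 TPM, adjusted p = 0.734) and Psme4 (50.7 ± 2.33 against 50.1 ± 1.06 TPM, adjusted p = 0.939) lay close to medium. The count of rises depended on single libraries: it was 26 without replicate 1 given antibodies alone, which enters only the shared estimate of the spread, 9 without TRAIL replicate 3, and 5 without medium replicate 1 and without medium replicate 2. Median-of-ratios scaling moved the median of all genes from -0.06 to 0.01 and the calls from 1017 up and 1394 down to 1300 up and 1056 down, and 16 members rose.

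Each immunoproteasome catalytic gene was also set against the gene whose subunit it replaces, within the same library, a ratio that no scaling of libraries can change apart from the 1 TPM added to each value. All 3 ratios were lowest with antibodies, intermediate in medium and highest with antibodies and TRAIL. The TPM ratio of Psmb10 to Psmb7 was 2.87 and 2.9 in medium, 0.667, 0.72 and 0.74 with antibodies, and 3.85, 4.51 and 4.19 with TRAIL as well. Psmb10 was thus below Psmb7 in each stimulated library and above it in all other culture libraries. For Psmb9 to Psmb6 the ratio was 1.09 and 1.07 in medium, 0.619, 0.653 and 0.604 with antibodies and 1.77, 1.86 and 1.72 with TRAIL as well. The ratio of Psmb8 to Psmb5 was 7.89 and 6.08 in medium, 3.63, 4.17 and 4.27 with antibodies and 10.3, 11.1 and 9.66 with TRAIL as well.

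On the log2 scale, the ratios with TRAIL minus those with antibodies alone were 2.54, 1.5 and 1.35 for the Psmb10, Psmb9 and Psmb8 pairs. The same differences were 0.54, 0.72 and 0.58 for TRAIL minus medium, and -2.0, -0.79 and -0.77 for antibodies alone minus medium. The groups did not overlap in any of these 9 contrasts. A two-sided exact permutation test gave p = 0.1 in each (0.2 after Benjamini-Hochberg adjustment over 18 ratio contrasts), the smallest p that groups of 3 and 3 or 3 and 2 libraries allow, so none of these differences could pass 0.05. As a share of the summed TPM of the 6 catalytic genes, the immunoproteasome genes made up 72.5% ± 0.92 in medium (SD, n = 2), 57.7% ± 1.3 with antibodies (n = 3) and 80.0% ± 0.74 with antibodies and TRAIL (n = 3).

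**Figure D3:**
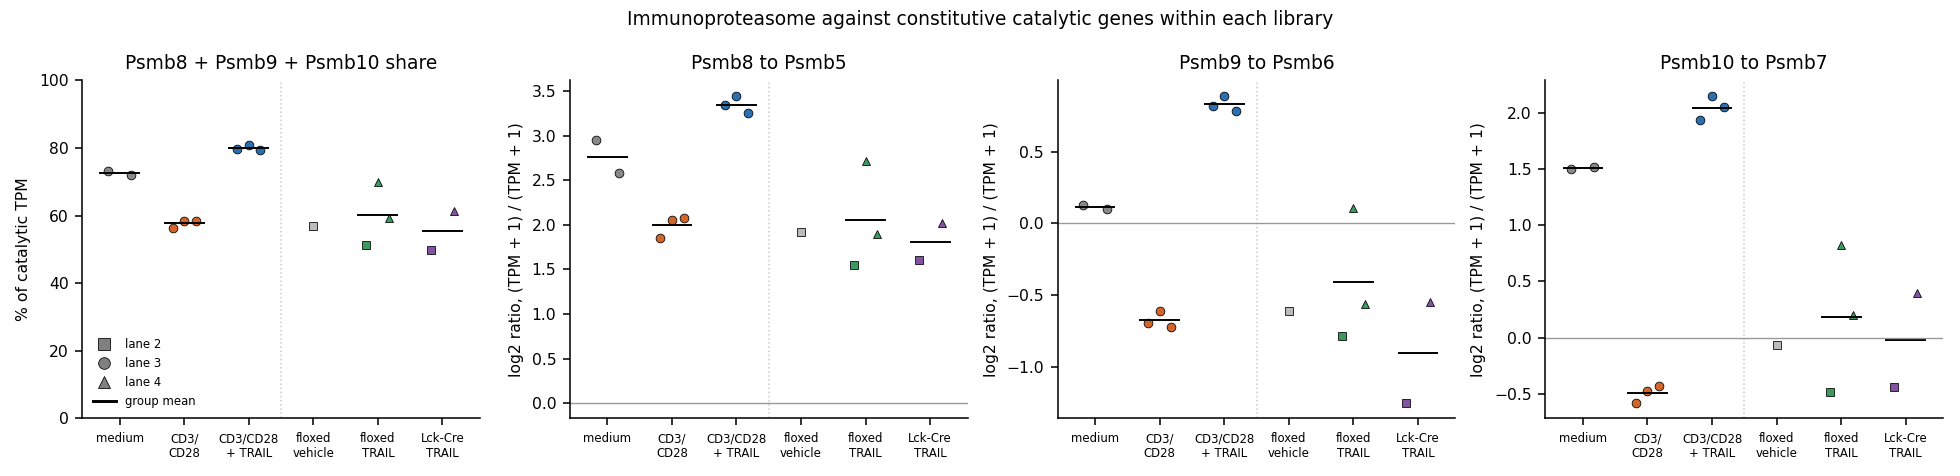
Share of Psmb8, Psmb9 and Psmb10 in the summed TPM of the 6 catalytic genes (left) and log2 ratios of each immunoproteasome gene to its constitutive counterpart, per library (points, shaped by lane) in the 6 groups; bars are group means. In culture the 3 groups do not overlap in any panel, and in mice they do.

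Genes that work with the proteasome, from lists outside the symbol rule, were counted in the same way, to be read against the shares of all genes called in each comparison (27.5% higher and 49.0% lower with antibodies, 48.1% and 28.6% with TRAIL over antibodies, 7.25% and 9.93% with TRAIL over medium). Of 20 partners and regulators 19 were listed, and Paaf1 was not analysed here. With antibodies 12 rose and 5 fell (median 0.57), with TRAIL over antibodies 5 rose and 13 fell (-0.43), and with TRAIL over medium 2 rose and 2 fell (0.03). Pomp, the chaperone that closes the maturing 20S core, was at 51.5 and 54.1 TPM in medium, 206, 163 and 166 TPM with antibodies and 81.2, 82.6 and 82.9 TPM with TRAIL as well. It rose by 1.73 ± 0.10 (adjusted p = 1.61e-06) and then differed from antibodies alone by -1.10 ± 0.090 (adjusted p = 1.14e-05). Nfe2l1 was at 102 ± 0.536, 201 ± 32.2 and 115 ± 3.0 TPM in the same order, with a log2 fold change of 0.96 (adjusted p = 0.000162) and then -0.79 (adjusted p = 0.000265). The 19S lid component Sem1 (1.06 and -0.75) and the 19S ubiquitin receptor Adrm1 (0.57 and -0.43) also passed in both. Of 6 ubiquitin and E1 genes 5 rose with antibodies and 4 fell with TRAIL over antibodies. Ubb was at 700 ± 4.02, 1062 ± 174 and 895 ± 87.9 TPM and passed only in the first contrast (0.59, adjusted p = 0.00504; then -0.24, adjusted p = 0.115).

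Of 11 interferon and MHC class I processing genes, 2 rose and 4 fell with antibodies (median -0.05), 9 rose and 1 fell with TRAIL over antibodies (1.14), and 10 rose and 0 fell with TRAIL over medium (0.92). Irf1, an interferon-induced factor known to act on Psmb9 and Tap1, was at 610 and 590 TPM in medium, 557, 631 and 640 TPM with antibodies, and 1573, 1583 and 1602 TPM with antibodies and TRAIL. It did not pass with antibodies (0.02, adjusted p = 0.807) and rose with TRAIL over antibodies (1.38 ± 0.065, adjusted p = 5.22e-07). Nlrc5, the class I transactivator, went from 172 ± 4.76 to 101 ± 29.0 and then 284 ± 9.93 TPM. By limma it fell with antibodies (-0.80 ± 0.22, adjusted p = 0.00958) and rose with TRAIL over antibodies (1.52 ± 0.19, adjusted p = 0.000154). With TRAIL over medium it was the 1 gene of the 11 that did not pass (0.72 ± 0.22, adjusted p = 0.0584).

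Psmb9 and Psmb8 lie in the MHC beside the peptide transporter genes Tap1 and Tap2. All 4 had their highest culture means with TRAIL, but so did Psmb10, Psme1, Psme2, Psme2b and Psme4, which lie on other chromosomes. The share of all genes with their highest mean there is not given here. On GRCm38 with GENCODE M21, Psmb9 spans chr17:34181987-34187764 (-), Tap1 chr17:34187553-34197225 (+), Psmb8 chr17:34197721-34201454 (+) and Tap2 chr17:34203527-34216321 (+). Tap1 was at 285 ± 1.9, 285 ± 10.6 and 541 ± 9.48 TPM in medium, with antibodies and with TRAIL as well, and Tap2 at 259 ± 4.22, 206 ± 11.8 and 450 ± 9.59 TPM. The annotated spans of Psmb9 and Tap1 share 212 bases on opposite strands, and since the strand of counting is not stated, reads there are uncertain. Psme1 (chr14:55578123-55581529) and Psme2 (chr14:55587441-55591113) lie 5911 bases apart on opposite strands, and Psmb10 lies alone at chr8:105935735-105938444 (-).

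In the mouse experiment no member passed in any comparison, and many members split by lane, as did many of all genes. By limma 0 of 49 tested members rose or fell with TRAIL over vehicle in floxed animals, in Lck Cre over floxed animals given TRAIL, and in Lck Cre animals over vehicle, where 0.0% of 14176 tested genes passed in either direction. At an unadjusted p under 0.05 there were 3 members and 566 genes in the first of these, 0 and 106 in the second and 0 and 132 in the third. For 23 of 49 members all 3 lane 2 libraries lay below all 3 lane 4 libraries, and for 3 they lay above, beside 36.0% and 10.7% of all genes. Those 23 included Psmb8, Psmb10 and Psme1, and the 3 were Psma1, Psma4 and Psmd10.

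Floxed TRAIL replicate 2 stood out for the immunoproteasome. Psmb8 was at 198 TPM in the vehicle library, 185, 374 and 228 TPM in floxed TRAIL replicates 1, 2 and 3, and 179 and 244 TPM in Lck Cre replicates 1 and 2. Psmb9 was at 94.8 TPM, then 94.9, 162 and 93.9 TPM, and then 69.3 and 97.0 TPM in the same order. Psmb10 was at 82.0 TPM, then 86.8, 177 and 112 TPM, and then 70.2 and 118 TPM. All 5 immunoproteasome genes were highest in floxed TRAIL replicate 2. Psme1 was at 289 TPM with vehicle, at 270, 474 and 326 TPM in floxed and at 237 and 319 TPM in Lck Cre libraries, and Psme2 at 173 TPM, then 178, 236 and 159 TPM, and then 164 and 169 TPM. Floxed and Lck Cre libraries given TRAIL overlapped for each of these genes. The vehicle library lay below all 3 floxed TRAIL libraries for Psmb10 and above both Lck Cre libraries for Psme2, and within the range of the other group for the remaining genes.

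The constitutive catalytic genes Psmb5, Psmb6 and Psmb7 varied less between mouse libraries than Psmb8, Psmb9 and Psmb10. This did not hold for all members outside the immunoproteasome set: Psmd3 ran from 54.2 to 134 TPM and Psmf1 from 10.2 to 32.5 TPM. Psmb5 was at 51.7 TPM with vehicle, 62.2, 56.0 and 60.6 TPM in floxed and 58.1 and 59.5 TPM in Lck Cre libraries given TRAIL. Psmb6 was at 145 TPM, then 163, 150 and 139 TPM, and then 167 and 142 TPM, and Psmb7 at 85.7 TPM, then 121, 100 and 97.2 TPM, and then 95.8 and 88.9 TPM. Psme3 was split by lane, at 193, 183 and 155 TPM on lane 2 and 250, 292 and 277 TPM on lane 4, whereas Psme4 lay between 35.8 and 43.0 TPM in all 6. The immunoproteasome share of catalytic TPM was 57.0% with vehicle, 51.4%, 70.0% and 59.4% in floxed and 49.8% and 61.2% in Lck Cre libraries given TRAIL.

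Between libraries labelled Lck Cre and floxed TRAIL, the log2 fold changes of the 5 immunoproteasome genes were -0.26 ± 0.34 for Psmb8, -0.46 ± 0.31 for Psmb9, -0.39 ± 0.37 for Psmb10, -0.34 ± 0.29 for Psme1 and -0.18 ± 0.22 for Psme2, each with an adjusted p of 1.0. Within lane 2, Lck Cre replicate 1 was below floxed replicate 1 for 44 of 49 members (median -0.20), the 5 immunoproteasome genes included (-0.05 to -0.45). Over all genes it was below for 7901 of 14176 (median -0.05). Within lane 4, Lck Cre replicate 2 was below the mean of floxed replicates 2 and 3 for 42 of 49 members (median -0.10). Over all genes it was below for 5842 of 14176 (median 0.04). The 5 immunoproteasome genes were again all below, at -0.20 to -0.34. This second value rested on floxed replicate 2 for the immunoproteasome: in a split chosen after the data were seen, the 5 genes lay at -0.48 to -0.74 against replicate 2 and at -0.03 to 0.10 against replicate 3. Within lane 2, floxed TRAIL replicate 1 was above the vehicle library for 40 of 49 members (median 0.20) and 6563 of all 14176 genes (median -0.04). The 5 immunoproteasome genes lay between -0.10 and 0.08. These within-lane values set single libraries side by side and have no test. The neutrophil sums given above moved with lane. The lane 2 libraries also differed in other markers: given in the order vehicle, floxed TRAIL and Lck Cre, the erythroid and platelet sum was 21959, 5498 and 8033, the CD4 T cell sum 2042, 466 and 1206, and the macrophage sum 4694, 7806 and 5216. On lane 4, floxed TRAIL replicates 2 and 3 and Lck Cre replicate 2 had erythroid and platelet sums of 1689, 2895 and 3763. The part of these cells in the mouse values was not tested.

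**Figure D4:**
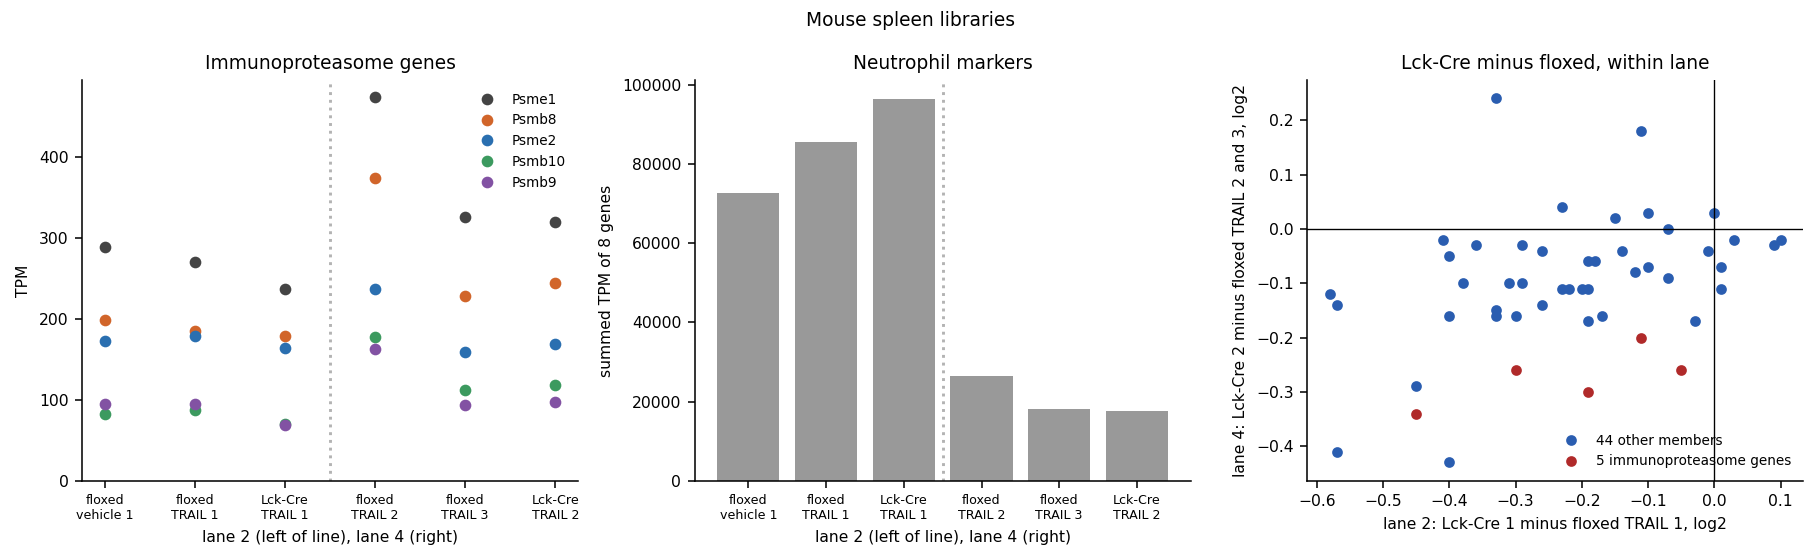
Left, TPM of the 5 immunoproteasome genes in the 6 mouse libraries ordered by lane; middle, summed TPM of 8 neutrophil markers in the same libraries; right, log2 difference of the 49 members between Lck Cre and floxed TRAIL libraries within lane 2 (x axis) and within lane 4 (y axis). Floxed TRAIL replicate 2 has the highest value of all 5 genes, and neutrophil sums are 72677 to 96355 on lane 2 and 17536 to 26504 on lane 4.

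The catalytic ratios in mice overlapped between groups. The TPM ratio of Psmb10 to Psmb7 was 0.956 with vehicle, 0.717, 1.77 and 1.15 in floxed and 0.733 and 1.33 in Lck Cre libraries given TRAIL. On the log2 scale the Lck Cre group differed from the floxed TRAIL group by -0.20 for this pair, -0.49 for Psmb9 to Psmb6 and -0.25 for Psmb8 to Psmb5 (two-sided exact permutation p = 0.8, 0.5 and 0.9, where 0.1 is the smallest possible). Of the partner, ubiquitin and interferon lists, 0 genes passed in any mouse comparison by limma; at an unadjusted p under 0.05 there was 1, a ubiquitin list gene with TRAIL over vehicle.

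The authors' deposited table of culture tests calls 46 of the 49 genes higher and 0 lower with antibodies, 3 higher and 43 lower with TRAIL over antibodies, and 14 higher and 0 lower with TRAIL over medium, at an adjusted p under 0.05. Over all 20875 genes, the authors' deposited table calls 30.1% higher and 32.5% lower, 32.1% higher and 29.8% lower, and 6.15% higher and 6.29% lower in the same order. In the authors' deposited table of the mouse experiment, whose comparison is not named, 0 of the 49 and 0 of all 18855 genes pass, and the smallest adjusted p is 0.658 among the 49 and 0.271 among all. The authors' deposited gene set table names no comparison either, and lists the set KEGG_PROTEASOME (42 genes) with a normalized enrichment score of 2.25 and WP_PROTEASOME_DEGRADATION (60 genes) with 2.11, each with q = 0.002. The leading genes in the authors' deposited table include 26 of these 49 members for the former and 33 for the latter, with 3 and 5 of the immunoproteasome genes. The log2 fold changes in the authors' deposited mouse table had a Pearson correlation of -0.966 with the Lck Cre over floxed fit with lane as a term, across 14176 genes that are not independent replicates, so a positive sign in that table goes with higher levels in the floxed group.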

How the data were processed

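Culture expression was deposited as TPM, per the file headers; mouse headers name no unit, and TPM was inferred because each deposited column sums to 1000000. Log2 fold changes and p-values of the authors' own tests stand beside the TPM values per the file headers, and a deposited gene set table gives a normalized enrichment score, set size and q-values. The submitters' processing notes name, with no roles, GRCm38.p6, StringTie 2.1.4, DESeq2 1.26.0, Trimmomatic 0.36, SAMtools 1.2 and HISAT2 2.1.0; the strand of counting is not given in the sources used here. Per the labels' protocols the library kit was SureSelect XT HS2 mRNA. Columns of z-scores, 8 for culture and 6 for mice, were not used.

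TPM times gene length fell on whole multiples of 1 step in every library (largest deviation from a whole number 1.75e-10), and that step was taken as 1 read to give depth. Each experiment was fitted with limma 3.58.1 (R 4.3.3) with a variance trend on log2(TPM + 1), which understates the change of low genes, over genes whose mean TPM reached 1; p-values are two-sided, Benjamini-Hochberg adjusted over all genes of a comparison, with a threshold of 0.05. The vehicle group has 1 library and was assumed to vary like the others. The fit was also run on simulated data, with the same normal noise for both experiments and no lane difference. That noise was smaller than the spread of the immunoproteasome genes between mouse libraries. The simulation therefore cannot show how the fit behaves on the mouse data. Ratios used a two-sided exact permutation test. The members and gene lists were chosen with earlier results of these data known. Values were given in every library for the 5 immunoproteasome genes, Psmb5, Psmb6, Psmb7, Psme3, Psme4 and, per comparison, the 3 called members with the largest rise and fall. In mice, same-numbered libraries of the TRAIL groups deviated together (correlations 0.696 and 0.22), replicate number being tied to lane. Floxed TRAIL replicate 3 and Lck Cre replicate 2, of unlike number but both on lane 4, did so as well (0.693). The 2 Lck Cre libraries deviate as mirror images from their mean, so these correlations are not independent. In culture same-numbered libraries did not deviate together (-0.134 to 0.0777). Alternatives were another pseudocount and filter, 2 scalings, a replicate block, lane as a term and each library left out. The values of some single genes of the partner, ubiquitin and interferon lists are not reported here.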

Additional observations from a re-analysis of the deposited data

How the results depend on the processing

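In culture the members higher with antibodies numbered 42 to 45 and those lower with TRAIL over antibodies 40 to 42 under every alternative run, and the 9 catalytic ratio differences kept their sign. Median-of-ratios scaling took the members lower with antibodies from 2 to 0 and those higher with TRAIL over antibodies from 5 to 3. It reversed Psme2b (0.03) and Psme4 (0.11) with antibodies. It also reversed Psme1 (-0.27), Psme2 (-0.15) and Psme4 (-0.02) with TRAIL over antibodies. The median of all genes moved under this scaling too, as given with the results. Leaving out 1 library at a time gave 1 to 3 members lower with antibodies, 5 to 26 higher and 0 to 2 lower with TRAIL over medium, and a Psme4 change of -0.02 to 0.04 in that contrast. In mice 0 members passed under any alternative, and leaving out 1 library (floxed TRAIL replicate 2 or either Lck Cre library) moved the log2 ratio differences through 0, except that of Psmb9 to Psmb6 for Lck Cre over floxed. For floxed TRAIL over vehicle they ran from -0.20 to 0.39 (Psmb8 to Psmb5), -0.06 to 0.39 (Psmb9 to Psmb6) and -0.07 to 0.57 (Psmb10 to Psmb7), for Lck Cre over floxed from -0.50 to 0.09, -0.85 to -0.14 and -0.62 to 0.22 in the same order, and for Lck Cre over vehicle from -0.32 to 0.10, -0.65 to 0.06 and -0.38 to 0.47. The log2 fold changes between Lck Cre and floxed libraries ran from -0.49 to 0.02 (Psmb8), -0.70 to -0.20 (Psmb9), -0.76 to -0.02 (Psmb10), -0.55 to -0.11 (Psme1) and -0.30 to -0.01 (Psme2). With replicate number as a block, 44, 4 and 10 members were higher and 2, 41 and 0 lower in the 3 culture comparisons, and Psmb9 passed with antibodies (0.23, adjusted p = 0.0494); all genes called with TRAIL over medium fell to 623 up and 733 down, from 1017 and 1394. The block, which ties replicates to lanes in mice, called 0 members there. Depth limits Psma8, at 1 to 11 reads in culture.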
